A study of Homo sapiens with 16 samples.

Results

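The 39 genes described here encode the hypoxia-inducible transcription factors, their inducible targets, the glucose and lactate transporters and the enzymes of glycolysis. They were chosen by name, with each symbol matched to the Ensembl identifier in the deposited tables, and they make up 39 of the 60666 genes listed there. All 39 were found, and 38 passed the filter on low counts; ANGPTL4, a secreted lipase inhibitor, did not pass and stood at 0 to 0.191 normalised CPM (CPM divided by a composition factor per library). RNA was measured in U2OS, a human bone tumour line labelled as a sarcoma cell line. The study addressed how the PIP4K lipid kinases affect expression and splicing. The knockdown cells carried a stable short hairpin RNA against PIP4K2A, against PIP4K2B or against both (the double knockdown), and the cells they were set against carried the empty plko.puro vector. Each of the 4 genotypes was collected 6 h after UV-C light of 30 J/m2 or left untreated, with 2 libraries in each of 8 groups and 16 libraries in all. The growth protocol given for every sample names high-glucose medium with puromycin, which selects for the vector. The labels name no hairpin without a target as a control, and they do not say whether a stable line is a pool or 1 clone. Nothing in them says that the 2 libraries of a group are separate cultures, and p-values here reflect the spread among these libraries, which may be technical.

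Cells turn glucose into pyruvate through a chain of cytosolic enzymes, and lactate dehydrogenase then reduces pyruvate so that the chain can go on without oxygen. When oxygen is short, the prolyl hydroxylases EGLN1 and EGLN3 no longer mark the HIF alpha subunits for destruction, and HIF1A or EPAS1 pairs with ARNT on promoters that carry the core letters ACGTG or GCGTG. Much of this control acts on HIF protein rather than on HIF mRNA, which RNA sequencing does not see. Tumour lines kept in glucose-rich medium often express the pathway strongly with oxygen present.

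Promoter letters of 4 members are shown because these genes carry the patterns described below. LDHA was higher after UV in every genotype relative to the median gene, but not when libraries were scaled to ribosomal protein genes. SLC2A1 was lower after UV in every genotype on either scale. Relative to the median gene, ALDOC and CA12 were lower in every knockdown. Each sequence is the sense strand, 5′ to 3′, from 250 bases before to 50 bases after a start site in RefSeq on GRCh38.p14. Capitals mark ACGTG or GCGTG on either strand (as CACGT or CACGC on the opposite one). The 6-letter palindrome CACGTG holds ACGTG on both strands and was counted on both.
LDHA: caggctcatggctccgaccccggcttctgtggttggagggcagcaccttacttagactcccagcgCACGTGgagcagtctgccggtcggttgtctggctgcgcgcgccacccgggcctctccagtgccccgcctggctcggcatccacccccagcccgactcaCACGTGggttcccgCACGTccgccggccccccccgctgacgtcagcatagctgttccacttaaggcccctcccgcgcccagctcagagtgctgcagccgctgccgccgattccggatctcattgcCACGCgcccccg
SLC2A1: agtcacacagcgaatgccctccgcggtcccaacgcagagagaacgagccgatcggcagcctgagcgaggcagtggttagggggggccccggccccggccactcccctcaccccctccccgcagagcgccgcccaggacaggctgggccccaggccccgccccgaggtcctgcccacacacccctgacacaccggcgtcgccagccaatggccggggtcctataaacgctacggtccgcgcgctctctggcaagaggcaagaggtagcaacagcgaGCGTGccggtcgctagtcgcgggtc
ALDOC: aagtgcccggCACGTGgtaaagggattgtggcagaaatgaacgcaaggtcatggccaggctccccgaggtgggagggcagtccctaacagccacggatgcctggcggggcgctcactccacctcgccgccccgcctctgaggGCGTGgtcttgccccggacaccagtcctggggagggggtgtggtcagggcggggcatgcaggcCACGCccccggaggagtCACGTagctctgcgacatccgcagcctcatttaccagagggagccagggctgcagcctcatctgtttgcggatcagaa
CA12: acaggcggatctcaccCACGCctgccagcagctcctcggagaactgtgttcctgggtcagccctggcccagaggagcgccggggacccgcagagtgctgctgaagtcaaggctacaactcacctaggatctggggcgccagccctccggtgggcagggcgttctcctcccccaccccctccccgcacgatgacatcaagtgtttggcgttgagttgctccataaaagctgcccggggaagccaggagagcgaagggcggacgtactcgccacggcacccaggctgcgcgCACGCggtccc
The windows lie at chr11:18394313-18394612 on the plus strand for LDHA, and on the minus strand at chr1:42958819-42959118 for SLC2A1, chr17:28576846-28577145 for ALDOC and chr15:63381797-63382096 for CA12. In the windows shown, LDHA held 6 matches and ALDOC held 5, against 2 in CA12 and 1 in SLC2A1. A second LDHA window, not shown, held 1. Whether the number of matches goes with the responses of members was not tested. Start sites of 35 members were in the RefSeq table, in 63 windows, and the table gave none for VEGFA, BNIP3L, NDRG1 and SLC2A3. Either core stood in 42 of the 63 member windows (66.7%), against 48.4% of all 35116 promoter windows of that length, and 7.94% of member windows against 4.4% of all windows held at least 4 matches. A match is a run of letters, not a measured binding site, and many members were chosen for being HIF targets.

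The deposited tables held 28.0 to 39.9 M expected counts in 15 libraries, and 1.28 M in replicate 1 of the untreated empty-vector cells. That library was set aside: mitochondrial genes took 14.6% of its counts, against 2.2 to 3.43% elsewhere, and its log values correlated with the others at 0.486 to 0.56, against 0.965 to 0.997 among the others. Untreated empty-vector cells are therefore represented by 1 library, and their spread is taken from the other groups. With all 16 libraries in the fit, at most 1 member was called in any comparison of 2 groups. Replicates of the PIP4K2A knockdown after UV differed most, with an SD of 0.426 for the log2 difference between the pair, against 0.122 to 0.244 in the other groups. PIP4K2A stood at 7.9 to 20.5 normalised CPM in the cells with its hairpin, against 49.5 to 61.0 in the others, and PIP4K2B stood at 12.8 to 24.6, against 68.7 to 96.9. The mesenchymal genes VIM and COL1A1 stood at 1758 to 3836 and 1252 to 2955 normalised CPM, while the osteoblast markers SP7, BGLAP and IBSP stayed at 0.677 or less and the blood markers CD3E and HBB at 0.112 or less. The epithelial keratins KRT8 and KRT18 stood at 107 to 612 and 94.1 to 351 normalised CPM.

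On a scale per transcript length, the later steps of glycolysis dominated the members. GAPDH, which oxidises glyceraldehyde phosphate, had the highest level with a median of 3479 TPM (3168 to 4408 over the 15 libraries). PKM, ENO1, TPI1, ALDOA and LDHA followed at medians of 1013, 738, 656, 421 and 366 TPM. The upper steps stood far lower: HK1 at 30.5 TPM, HK2 at 3.36, and the phosphofructokinase subunits PFKM, PFKP and PFKL at 16.4, 13.7 and 11.7. GPI, the isomerase between them, had a median of 104 TPM.

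In most enzyme or transporter families 1 member led in all 15 libraries. HK1 exceeded HK2 by a median of 9.31-fold in TPM, ALDOA exceeded ALDOC by 173-fold, ENO1 exceeded the neuronal form ENO2 by 39.7-fold, and SLC2A1 exceeded SLC2A3 by 4.54-fold. HIF1A exceeded EPAS1 by 23.5-fold, EGLN1 exceeded EGLN3 by 5.4-fold and CA12 exceeded CA9 by 24.9-fold. The phosphofructokinase subunits were the exception among the families, since PFKL exceeded PFKM in 3 of 15 libraries and PFKM exceeded PFKP in 7. Likewise P4HA1 exceeded P4HA2 in 2 of 15. CA9, ADM and SLC16A3, often read as hypoxia genes, had medians of 0.15, 0.63 and 0.72 TPM, so that fold changes of CA9 and ADM below rest on few counts.

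**Figure D1:**
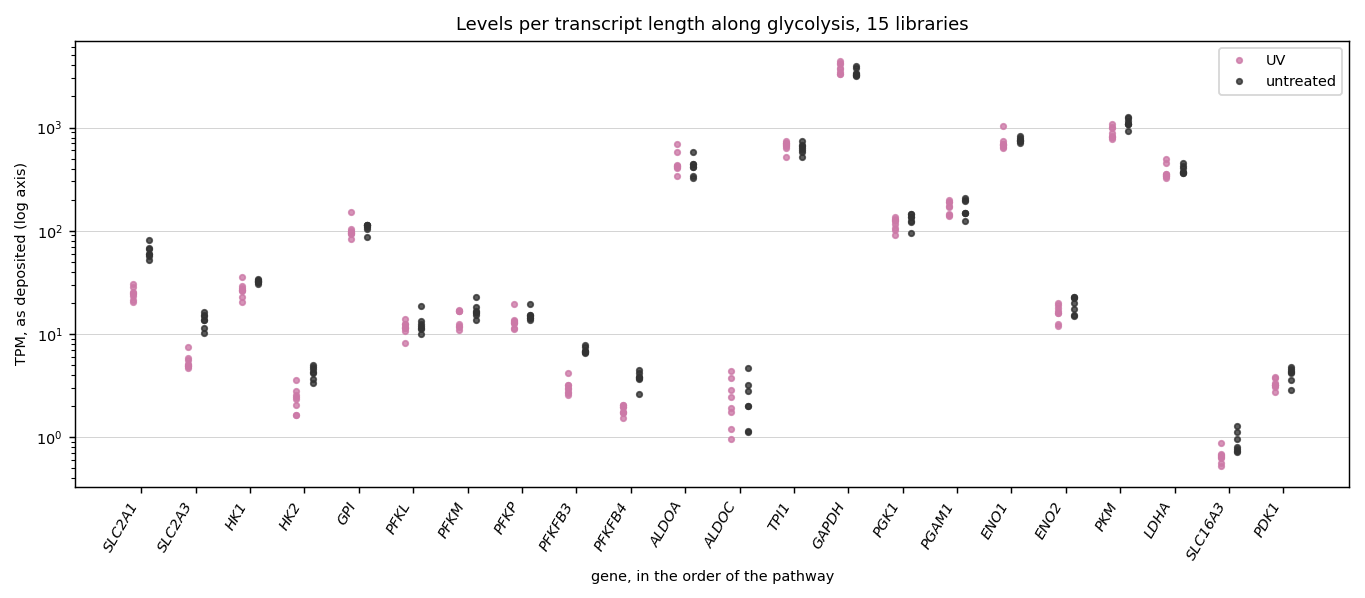
Deposited TPM (log axis) of 22 transporter, enzyme and regulator genes in pathway order, 1 point per library, with the 8 UV libraries left of the 7 untreated ones. GAPDH is highest at a median of 3479 TPM and SLC16A3 lowest at 0.72; TPM carries no composition factor, so differences between UV and untreated points here are not those of the fit.

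After UV, mRNAs of most glycolytic enzymes were higher relative to the median gene, and those of the glucose transporter SLC2A1 and of PFKFB3 were lower. Levels from here on are normalised CPM, and a gene was called when its adjusted p was under 0.05 in edgeR's quasi-likelihood test over 22597 genes. In the PIP4K2A knockdown 17 members rose and 5 fell of 38 tested, where 16.6% of all genes rose and 14% fell. In the PIP4K2B knockdown 16 rose and 5 fell (17.5% and 15.4% of all genes), and in the double knockdown 17 rose and 6 fell (19.1% and 16.1%). In empty-vector cells 9 rose and 5 fell (8.67% and 9.82%). The median member's log2 fold change was 0.35, 0.35 and 0.34 in the 3 knockdowns and 0.18 in empty-vector cells, against 0.02 or less for the median of all genes. The share of members that fell was near that of all genes in the knockdowns, whereas in each the share that rose was above it. No member was called in opposite directions in 2 genotypes.

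The direction of the rises depends on the scale. When libraries were scaled to 76 ribosomal protein genes instead, 0 members rose and 22, 25, 24 and 22 fell in the PIP4K2A, PIP4K2B and double knockdowns and in empty-vector cells. The median of all genes then shifted by -0.79, -0.9, -0.85 and -0.7 on the log2 scale, and the median member by -0.45, -0.56, -0.53 and -0.55. The median member lay above the median gene on either scale in each genotype.

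The counts also depend on single libraries. Of the calls, 13 of 22, 15 of 21, 14 of 23 and 5 of 14 held in every fit that left out 1 library, in the PIP4K2A, PIP4K2B and double knockdowns and empty-vector cells. The empty-vector count of 14 became 23 or 22 without replicate 1 or 2 of the PIP4K2A knockdown after UV, and 8 or 7 without replicate 1 or 2 of the UV-treated empty-vector cells. The double-knockdown count became 15 without its untreated replicate 1, and the PIP4K2A-knockdown count became 2 when only the libraries compared were fitted. Beside these changes the summed level of 7 epithelial markers ran from 354 to 998 normalised CPM after UV, against 249 to 449 untreated. That of 9 mesenchymal and osteoblast markers ran from 5511 to 7487, against 3991 to 6505. Of the 7 epithelial markers 4 rose in each knockdown, where 16.6%, 17.5% and 19.1% of all genes rose. In the PIP4K2A knockdown 1 fell (14% of all genes). In empty-vector cells 0 were called (8.67% of all genes rose), with all 7 log2 fold changes above 0 (median 0.47). The UV response of no epithelial marker was called different between a knockdown and empty-vector cells. The part of these markers in the member changes was not tested. In bulk RNA, fewer cells of a kind and less RNA per cell cannot be told apart.

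**Figure D2:**
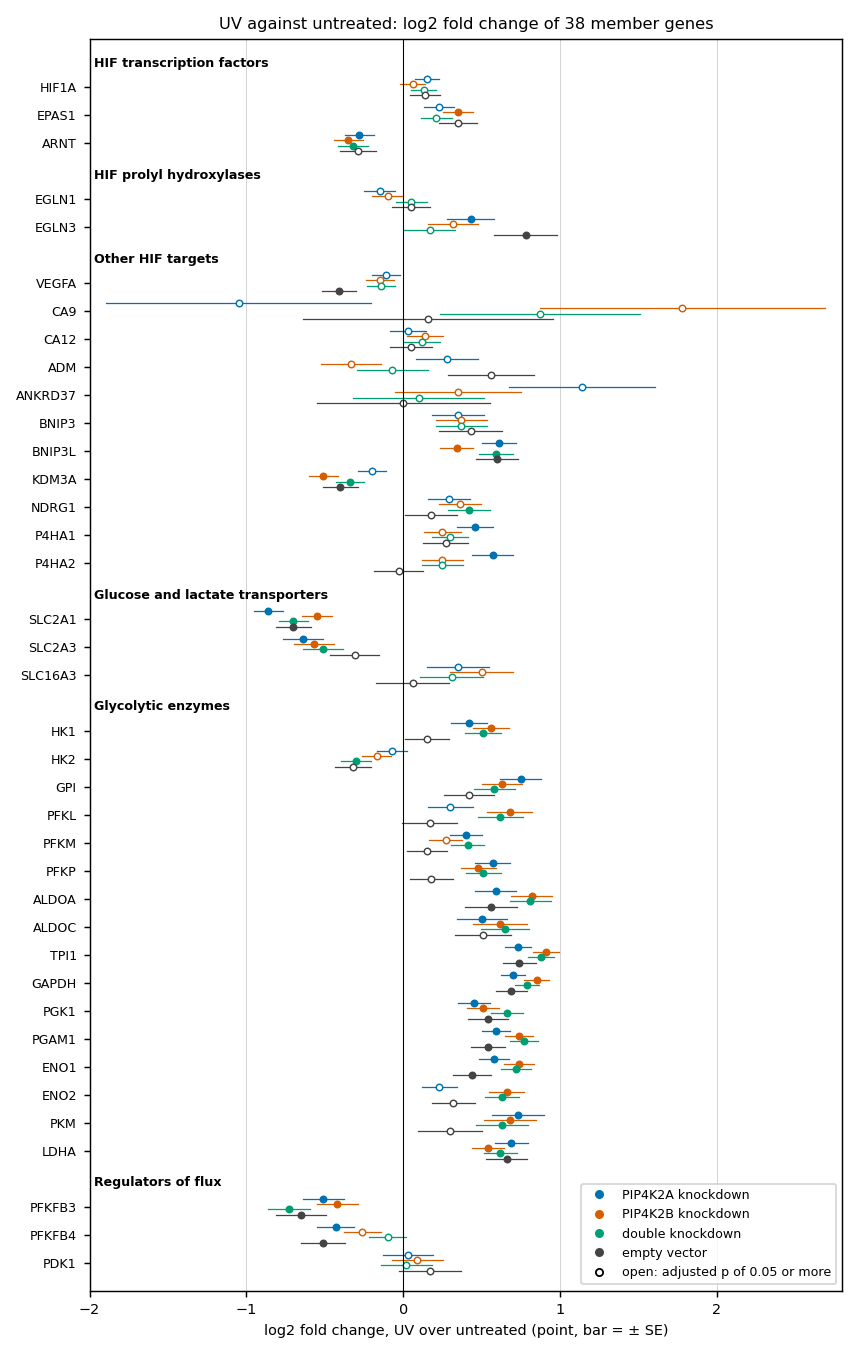
Log2 fold change, UV over untreated, of the 38 members tested, by role and genotype; points are edgeR estimates, bars are ± SE, and open points had an adjusted p of 0.05 or more. Enzymes from ALDOA to LDHA lie to the right of 0, and SLC2A1, SLC2A3 and PFKFB3 to the left; under ribosomal protein gene scaling 0 members were called higher.

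Among the 16 glycolytic enzymes, 13 rose in the PIP4K2A knockdown, 14 in the PIP4K2B knockdown, 15 in the double knockdown and 7 in empty-vector cells, where 16.6%, 17.5%, 19.1% and 8.67% of all genes rose, and 0 rose in any genotype under ribosomal protein gene scaling. Their median log2 fold changes were 0.58, 0.64, 0.63 and 0.43. Those called in all 4 genotypes were ALDOA, TPI1, GAPDH, PGK1, PGAM1, ENO1 and LDHA, which act in sequence from the splitting of fructose bisphosphate to phosphoenolpyruvate, with lactate dehydrogenase at the end.

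GAPDH (chromosome 12, 6533927 to 6538374, plus strand, GRCh38) stood at 7309 and 6932 normalised CPM with UV against 4288 and 4465 untreated in the PIP4K2A knockdown, at 9785 and 8911 against 5103 and 5249 in the PIP4K2B knockdown, at 7538 and 7486 against 4236 and 4434 in the double knockdown, and at 8804 and 9287 against 5597 in empty-vector cells. Every UV library lay above every untreated one, also across genotypes. The log2 fold changes were 0.70 ± 0.0787, 0.85 ± 0.0789, 0.79 ± 0.0788 and 0.69 ± 0.0988 (SE; adjusted p = 5.92e-05, 1.3e-05, 1.7e-05 and 0.000526). They held in every fit without 1 library, and under ribosomal protein gene scaling they were -0.11, -0.06, -0.08 and -0.03. TPI1, triose phosphate isomerase, had log2 fold changes of 0.73, 0.91, 0.88 and 0.74 in the same order of genotypes, and it too held in every such fit; under ribosomal protein gene scaling these were between -0.08 and 0.02.

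ALDOA, the main aldolase (chromosome 16, 30064164 to 30070457, plus strand), stood at 869 and 750 normalised CPM with UV against 473 and 599 untreated in the PIP4K2A knockdown, at 1115 and 1047 against 560 and 665 in the PIP4K2B knockdown, at 997 and 1004 against 567 and 575 in the double knockdown, and at 1136 and 1375 against 853 in empty-vector cells. The groups did not overlap within any genotype. The log2 fold changes were 0.59, 0.82, 0.81 and 0.56; the PIP4K2A-knockdown call was lost without its untreated replicate 1 (0.43) and the empty-vector call without its UV replicate 2 (0.41).

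PGAM1, phosphoglycerate mutase, stood at 471 and 416 normalised CPM with UV against 281 and 306 untreated in the PIP4K2A knockdown, at 504 and 510 against 298 and 309 in the PIP4K2B knockdown, at 651 and 655 against 368 and 398 in the double knockdown, and at 613 and 669 against 440 in empty-vector cells. Its log2 fold changes of 0.59, 0.74, 0.77 and 0.54 held in every fit without 1 library. LDHA, which makes lactate, stood at 1203 and 1397 against 868 and 747, at 1190 and 1230 against 897 and 770, at 1259 and 1253 against 818 and 820, and at 1260 and 1202 against 778 normalised CPM in the same order. Its UV levels lay within 1190 to 1397 in every genotype and its untreated levels within 747 to 897, so the 2 sets of libraries stood apart whatever the hairpin.

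PGK1 rose by 0.45, 0.51, 0.66 and 0.54 on the log2 scale and ENO1 by 0.58, 0.74, 0.72 and 0.44 in the PIP4K2A, PIP4K2B and double knockdowns and in empty-vector cells. GPI, PKM, PFKP, HK1 and the minor aldolase ALDOC rose in all 3 knockdowns and missed the threshold in empty-vector cells; PKM, for instance, had 0.73, 0.68 and 0.63 in the knockdowns and 0.30 in empty-vector cells (adjusted p = 0.345). PFKL and ENO2 rose in the PIP4K2B and double knockdowns, and PFKM in the PIP4K2A and double knockdowns. HK2, the inducible hexokinase, was the exception among the enzymes: it fell by 0.3 in the double knockdown (adjusted p = 0.0275) and had log2 fold changes of -0.07 and -0.17 in the single knockdowns and -0.32 in empty-vector cells. Each rise named here was below 0 under ribosomal protein gene scaling. The empty-vector calls were lost without UV replicate 2 of those cells for PGK1 (0.47) and without UV replicate 1 or 2 for ENO1 (0.46 and 0.42). The ALDOC calls were lost in 5, 3 and 2 of 15 fits without 1 library in the PIP4K2A, PIP4K2B and double knockdowns, each PKM call in 1 of 15, the PFKM calls in 2 of 15 each, and the HK2 call in 3 of 15. In the PIP4K2A knockdown, leaving out UV replicate 1 moved PKM to 0.31, GPI to 0.44, HK1 to 0.20 and PFKM to 0.26, and leaving out UV replicate 2 moved PGK1 to 0.26.

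**Figure D3:**
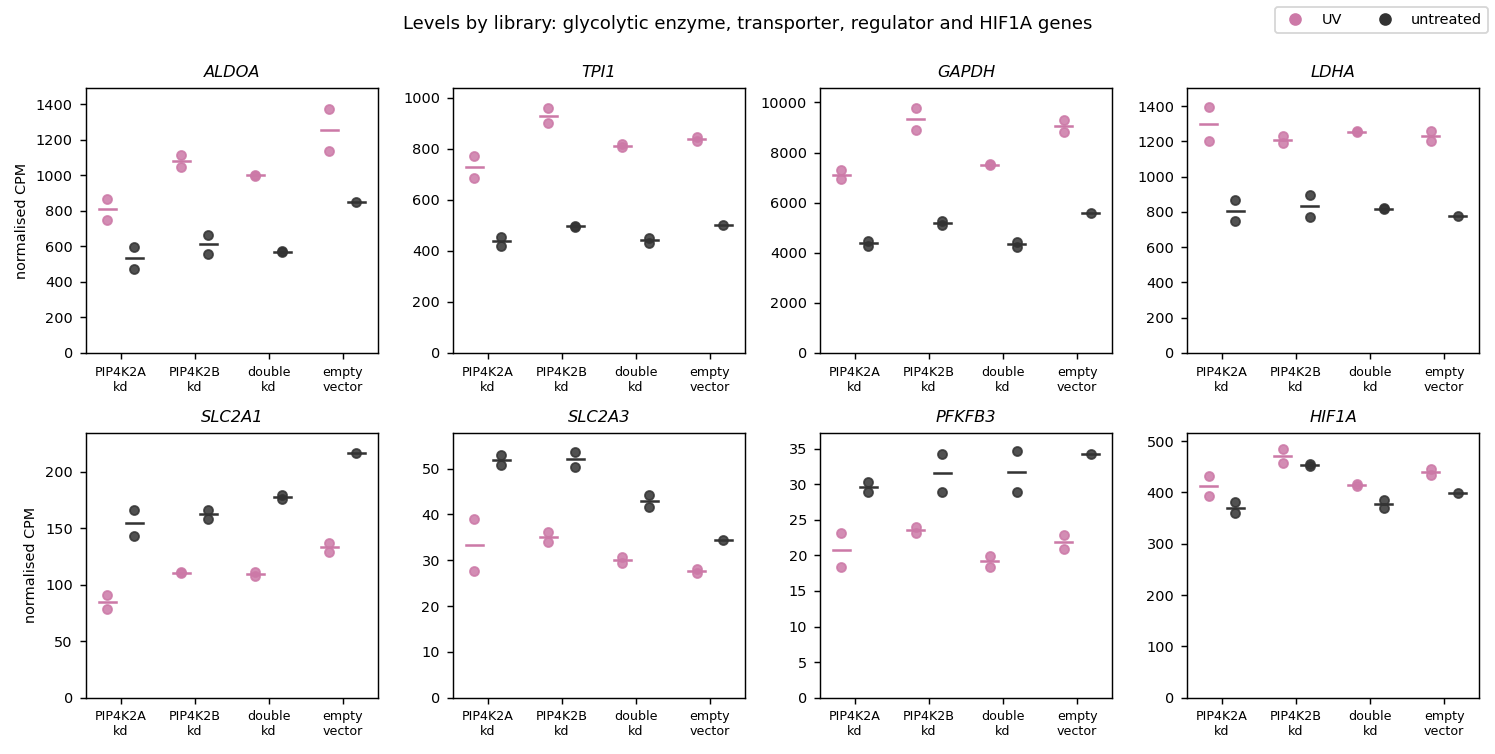
Normalised CPM by library for 8 members, UV (pink) left of untreated (dark) in each genotype, with the group mean as a bar. ALDOA, TPI1, GAPDH and LDHA are higher with UV (not under ribosomal protein gene scaling), SLC2A1, SLC2A3 and PFKFB3 are lower, and HIF1A stays within 360 to 485.

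Of the 3 transporters, SLC2A1 fell in all 4 genotypes, SLC2A3 in the 3 knockdowns and SLC16A3 in none. Of the 3 flux regulators, PFKFB3 fell in all 4, PFKFB4 in the PIP4K2A knockdown and empty-vector cells, and PDK1 in none. SLC2A1, the main glucose transporter (chromosome 1, 42925375 to 42959176, minus strand), stood at 78.8 and 91.0 normalised CPM with UV against 143 and 166 untreated in the PIP4K2A knockdown, at 111 and 110 against 158 and 166 in the PIP4K2B knockdown, at 111 and 108 against 176 and 179 in the double knockdown, and at 129 and 137 against 216 in empty-vector cells. All 8 UV libraries lay below all 7 untreated ones. The log2 fold changes were -0.86 ± 0.0941, -0.55 ± 0.0936, -0.70 ± 0.0938 and -0.70 ± 0.111 (SE; adjusted p = 4.95e-05, 0.000831, 0.000145 and 0.00105), and they held in every fit without 1 library and under ribosomal protein gene scaling.

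SLC2A3, a glucose transporter of higher affinity, stood at 27.7 and 39.1 normalised CPM with UV against 52.9 and 50.9 untreated in the PIP4K2A knockdown, at 33.9 and 36.1 against 50.4 and 53.7 in the PIP4K2B knockdown, at 30.7 and 29.4 against 44.3 and 41.7 in the double knockdown, and at 27.3 and 28.0 against 34.4 in empty-vector cells. Its UV libraries lay below the untreated ones in every genotype. It fell by 0.64, 0.57 and 0.51 on the log2 scale in the knockdowns and had -0.31 in empty-vector cells. The double-knockdown call was lost without untreated replicate 1 (-0.46) or UV replicate 2 (-0.49) of that line. SLC16A3, the lactate exporter, was called in 0 of 4 genotypes, with log2 fold changes of 0.06 to 0.5.

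PFKFB3, which makes the sugar bisphosphate that activates phosphofructokinase, stood at 23.1 and 18.3 normalised CPM with UV against 28.9 and 30.3 untreated in the PIP4K2A knockdown, at 24 and 23.1 against 34.3 and 28.9 in the PIP4K2B knockdown, at 18.4 and 19.9 against 28.9 and 34.6 in the double knockdown, and at 22.9 and 20.9 against 34.2 in empty-vector cells. All 8 UV libraries lay below all 7 untreated ones. Its log2 fold changes were -0.51, -0.42, -0.73 and -0.65; the call was lost in the PIP4K2B knockdown without untreated replicate 1 (-0.29), UV replicate 1 (-0.46) or UV replicate 2 (-0.4), and in empty-vector cells without UV replicate 2 (-0.58).

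Its relative PFKFB4 stood at 8.16 and 9.79 normalised CPM with UV against 11.9 and 12.2 untreated in the PIP4K2A knockdown, at 9.72 and 10.1 against 11 and 12.6 in the PIP4K2B knockdown, at 12.7 and 12 against 13.8 and 12.6 in the double knockdown, and at 11.2 and 11.9 against 16.5 in empty-vector cells. The libraries overlapped in the double knockdown alone. It fell by 0.43 in the PIP4K2A knockdown and by 0.51 in empty-vector cells, and had -0.26 and -0.1 in the other knockdowns. The first of these calls was lost without UV replicate 1 of that line (-0.33), and the second without either UV replicate of empty-vector cells (-0.46 and -0.55). PDK1, a kinase that inhibits pyruvate dehydrogenase, was called in 0 of 4 genotypes, with log2 fold changes of 0.02 to 0.17.

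Of the HIF subunits, ARNT fell in the knockdowns, EPAS1 rose in 1 of them on this scale, and HIF1A was not called. HIF1A (chromosome 14, 61695513 to 61748259, plus strand) stood at 393 and 432 normalised CPM with UV against 381 and 360 untreated in the PIP4K2A knockdown, at 458 and 485 against 456 and 452 in the PIP4K2B knockdown, at 412 and 417 against 385 and 370 in the double knockdown, and at 435 and 445 against 399 in empty-vector cells. Its log2 fold changes of 0.15, 0.06, 0.13 and 0.14 were not called (lowest adjusted p = 0.152), and HIF1A was called in 0 of the 10 comparisons. ARNT, the shared partner, stood at 54.8 and 47.3 with UV against 64.0 and 59.7 untreated in the PIP4K2A knockdown, at 47.0 and 47.8 against 62.8 and 58.0 in the PIP4K2B knockdown, at 49.5 and 52.5 against 66.8 and 60.5 in the double knockdown, and at 48.7 and 46.6 against 58.3 in empty-vector cells. ARNT had log2 fold changes of -0.28, -0.35, -0.32 and -0.29; the 3 knockdown values passed the test and the empty-vector value did not (adjusted p = 0.0961). In every genotype the UV libraries lay above the untreated ones for HIF1A and below them for ARNT. Each ARNT call was lost in 3 of 15 fits without 1 library (-0.18 to -0.37).

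EPAS1, the other alpha subunit, stood at 45.9 and 38.9 normalised CPM with UV against 34.4 and 37.9 untreated in the PIP4K2A knockdown, at 36.8 and 37.8 against 29.8 and 28.7 in the PIP4K2B knockdown, at 30.3 and 30.0 against 26.7 and 25.3 in the double knockdown, and at 27.4 and 26.2 against 21.0 in empty-vector cells. Its UV libraries lay above the untreated ones in every genotype. It rose with UV in the PIP4K2B knockdown (0.35, adjusted p = 0.0145), a call lost without any 1 of the 4 libraries of that line (0.31 to 0.38) and below 0 under ribosomal protein gene scaling. Of the prolyl hydroxylases, EGLN1 was called in no genotype (-0.15 to 0.05). EGLN3, itself a HIF target, stood at 7.71 and 8.61 with UV against 6.44 and 5.69 untreated in the PIP4K2A knockdown, at 5.29 and 5.77 against 4.71 and 4.12 in the PIP4K2B knockdown, at 4.71 and 4.34 against 4.59 and 3.42 in the double knockdown, and at 6.0 and 5.6 against 3.38 in empty-vector cells, and UV and untreated libraries overlapped in the double knockdown alone. It rose by 0.43 in cells with the PIP4K2A hairpin and by 0.78 in empty-vector cells, where the call was lost without UV replicate 1 (0.73). The PIP4K2A-knockdown call was lost in 14 of 15 fits without 1 library, and under ribosomal protein gene scaling the values were -0.38 and 0.06.

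Few of the other HIF targets were called after UV. Of 11 tested, 3 rose and 0 fell in the PIP4K2A knockdown, 1 rose and 1 fell in the PIP4K2B knockdown, 2 rose and 1 fell in the double knockdown, and 1 rose and 2 fell in empty-vector cells. Of all genes 16.6%, 17.5%, 19.1% and 8.67% rose and 14%, 15.4%, 16.1% and 9.82% fell, and most of these counts are near those shares. In each genotype 8 of the 11 log2 fold changes were above 0 on this scale, with medians of 0.29, 0.25, 0.25 and 0.16. BNIP3L, a mitophagy receptor, stood at 107 and 121 normalised CPM with UV against 82.2 and 67.5 untreated in the PIP4K2A knockdown, at 95.5 and 102 against 80.3 and 75.7 in the PIP4K2B knockdown, at 129 and 124 against 89.8 and 78.9 in the double knockdown, and at 128 and 119 against 81.3 in empty-vector cells. Its UV libraries lay above the untreated ones in every genotype. It rose by 0.61, 0.34, 0.59 and 0.60 on the log2 scale, and was at -0.2, -0.57, -0.29 and -0.12 under ribosomal protein gene scaling. The PIP4K2B-knockdown call was lost in 7 of the 15 fits without 1 library, and the empty-vector call without UV replicate 1 (0.56).

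KDM3A, a histone demethylase, stood at 33.8 and 37.4 normalised CPM with UV against 43.1 and 38.7 untreated in the PIP4K2A knockdown, at 26.4 and 26.2 against 37.4 and 37.7 in the PIP4K2B knockdown, at 35.2 and 32.7 against 44.0 and 41.9 in the double knockdown, and at 33.6 and 32.0 against 43.2 in empty-vector cells. Its UV libraries lay below the untreated ones in every genotype. It fell by 0.51 in the PIP4K2B knockdown, by 0.34 in the double knockdown and by 0.4 in empty-vector cells, and had -0.2 in the PIP4K2A knockdown. The PIP4K2B-knockdown call held in every fit without 1 library, the double-knockdown call was lost in 2 of 15 such fits and the empty-vector call in 6 of 14. P4HA1 and P4HA2, which hydroxylate collagen, rose by 0.46 and 0.57 in the PIP4K2A knockdown, and NDRG1, a stress gene, by 0.42 in the double knockdown; all 3 were below 0 under ribosomal protein gene scaling. The P4HA2 value was 0.32 without UV replicate 1 of the PIP4K2A knockdown, the P4HA1 call was lost without untreated replicate 2 of that line (0.32), and the NDRG1 call without any 1 of the 4 libraries of the double knockdown (0.39 to 0.44). BNIP3, CA12, CA9, ADM and ANKRD37 were called in no genotype.

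Set against empty-vector cells, each knockdown had more members lower than higher on this scale (not in every line under ribosomal protein gene scaling), led by ALDOC and CA12, while EPAS1 was higher in both single knockdowns. In untreated cells 3 members were higher and 11 lower with the PIP4K2A hairpin (3.71% and 4.13% of all genes), 3 and 6 with the PIP4K2B hairpin (5.26% and 4.99%), and 0 and 8 with both (3.24% and 2.96%). After UV 3 members were higher and 10 lower with the PIP4K2A hairpin (11.3% and 9.01% of all genes), 3 and 5 with the PIP4K2B hairpin (10.7% and 8.3%), and 0 and 4 with both (8.5% and 6.86%). The 3 untreated comparisons share 1 empty-vector library and the 3 UV comparisons share 2, so their values stand side by side and a shared direction among them is not independent. The share of members that were lower was above that of all genes in each comparison, by the least for the PIP4K2B hairpin and for both hairpins after UV. The median member's log2 fold change was -0.25, -0.14 and -0.1 untreated and -0.1, -0.03 and -0.01 after UV, with the median of all genes between -0.01 and 0.01.

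Under ribosomal protein gene scaling the splits became 4 higher and 3 lower, 2 and 3, and 1 and 1 untreated, and 6 and 8, 2 and 3, and 3 and 3 after UV, with no call reversed; the median of all genes shifted by 0.32, 0.15 and 0.25 untreated and by 0.22, -0.03 and 0.1 after UV. Fits without 1 library moved the untreated counts most: the PIP4K2A-knockdown count of 14 became 4 without untreated replicate 1 of that line, the PIP4K2B-knockdown count of 9 became 4 or 5 without untreated replicate 1 or 2 of that line and 15 or 16 without UV replicate 1 or 2 of the PIP4K2A knockdown, and the double-knockdown count of 8 became 0 without untreated replicate 1 of that line. After UV the PIP4K2A-knockdown count of 13 became 7 without UV replicate 2 of empty-vector cells, the PIP4K2B-knockdown count of 8 ran from 3 to 14, and the double-knockdown count of 4 from 2 to 10. The summed level of the epithelial markers was 372 to 449 normalised CPM in untreated knockdown cells against 249 in empty-vector cells, and 591 to 998 against 354 to 362 after UV. That of the mesenchymal and osteoblast markers was 3991 to 5295 against 6505 untreated, and 5511 to 7260 against 7342 to 7487 after UV. The part of either in these differences was not tested.

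**Figure D4:**
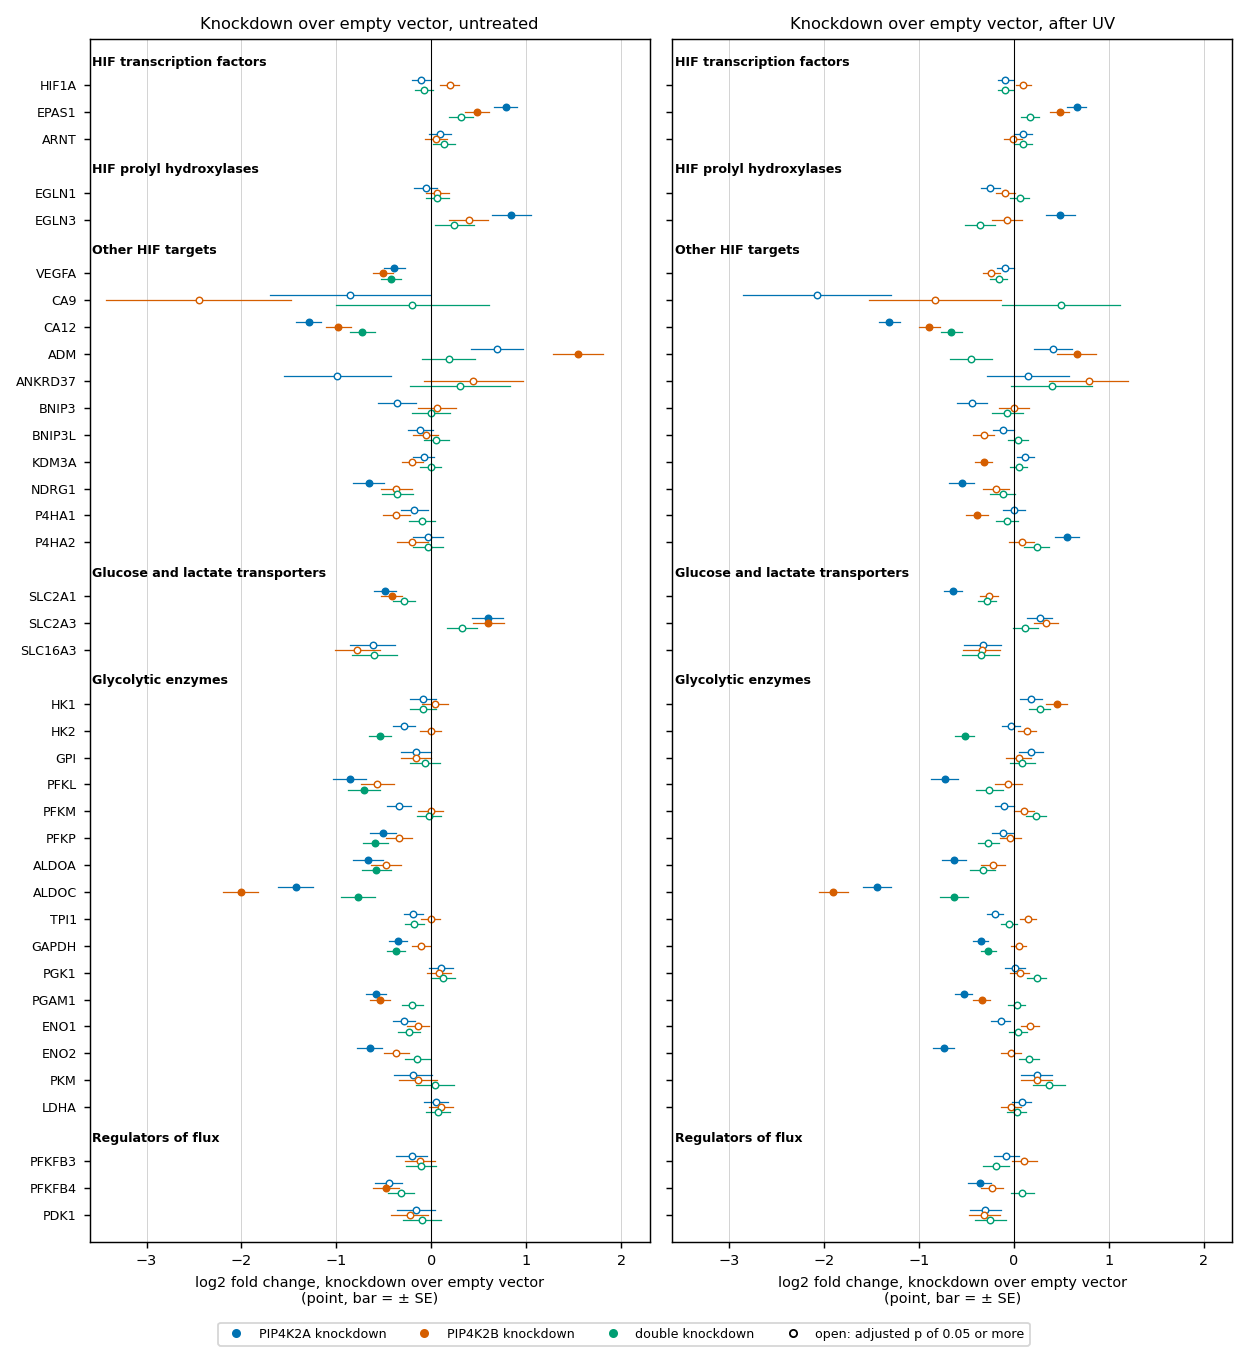
Log2 fold change, knockdown over empty vector, of the 38 members tested, untreated (left) and after UV (right); points are edgeR estimates, bars are ± SE, and open points had an adjusted p of 0.05 or more. ALDOC and CA12 are lower in all 3 knockdowns in both panels, and EPAS1 is higher in both single knockdowns; the untreated side rests on 1 empty-vector library.

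ALDOC (chromosome 17, 28573115 to 28577264, minus strand) was lower in every knockdown on this scale. Untreated, it stood at 2.97 and 3.49 normalised CPM in the PIP4K2A knockdown, at 2.19 and 2.11 in the PIP4K2B knockdown and at 4.65 and 5.55 with both hairpins, against 8.7 in empty-vector cells. After UV it stood at 4.63 and 4.48, 3.66 and 2.96, and 8.63 and 7.33, against 11.8 and 13 in empty-vector cells. No knockdown library reached the empty-vector level of its own treatment, and the double knockdown lay between the single knockdowns and empty vector. The log2 fold changes were -1.43 ± 0.181, -2.01 ± 0.186 and -0.77 ± 0.178 untreated (SE; adjusted p = 0.000534, 3.32e-05 and 0.0239) and -1.44 ± 0.15, -1.9 ± 0.155 and -0.63 ± 0.145 after UV (adjusted p = 4.62e-05, 5.86e-06 and 0.0106). The single-knockdown calls held in every fit without 1 library. The double-knockdown calls were lost without its untreated replicate 1 (-0.64), and after UV without its UV replicate 2 (-0.52) or UV replicate 2 of empty-vector cells (-0.56). Under ribosomal protein gene scaling 1 member in all was called lower in the untreated double knockdown. ALDOC and CA12 therefore cannot both have been called lower there.

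CA12, a membrane carbonic anhydrase (chromosome 15, 63321378 to 63382161, minus strand), stood at 12.6 and 11.7 normalised CPM in the untreated PIP4K2A knockdown, at 15.4 and 14.7 in the PIP4K2B knockdown and at 16.7 and 19.2 with both hairpins, against 29.7 in empty-vector cells. After UV it stood at 13.4 and 11.4, 17.0 and 16.3, and 18.6 and 20.4, against 30.0 and 31.7 in empty-vector cells. UV was not called to change it (0.03 to 0.14), and the 3 empty-vector libraries lay at 29.7 to 31.7 and the 12 knockdown libraries at 11.4 to 20.4. The log2 fold changes were -1.29 ± 0.132, -0.98 ± 0.132 and -0.73 ± 0.132 untreated (SE; adjusted p = 0.000128, 0.000591 and 0.00627) and -1.31 ± 0.113, -0.89 ± 0.112 and -0.66 ± 0.111 after UV (adjusted p = 1.21e-05, 0.000149 and 0.00163). Of these 6 calls, the untreated double-knockdown call alone was lost in a fit without 1 library, that of its untreated replicate 1 (-0.62). The limit given for ALDOC in that line under ribosomal protein gene scaling applies to CA12 too. CA12 in the untreated single knockdowns was also the member called with all 16 libraries in the fit (-2.07 and -1.75). That fit takes in the library set aside, where CA12 stood at 163 CPM, so these larger values are not further support.

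VEGFA, the main angiogenic growth factor, was lower in all 3 knockdowns when untreated, on this scale. It stood at 42.3 and 44.4 normalised CPM in the PIP4K2A knockdown, at 38.9 and 40.9 in the PIP4K2B knockdown and at 39.3 and 44.9 with both hairpins, against 56.6 in empty-vector cells, with log2 fold changes of -0.39, -0.51 and -0.43 (adjusted p = 0.045, 0.00946 and 0.0328). After UV it stood at 41.2 and 39.2, 35.5 and 36.7, and 39.5 and 37.0, against 41.9 and 43.5 in empty-vector cells, and no difference was called. VEGFA fell with UV in empty-vector cells (-0.41, adjusted p = 0.0186), a call that was lost without either UV library of those cells (-0.37 and -0.44), and the UV responses in the knockdowns were -0.11 to -0.15. The untreated values rest on the single empty-vector library, and the PIP4K2A-knockdown and double-knockdown calls were lost in 11 and 8 of 14 fits without another library. Under ribosomal protein gene scaling the median of all genes shifted by 0.32, 0.15 and 0.25 in these untreated comparisons. On that scale 3, 3 and 1 members in all were called lower.

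Other targets differed in 1 line. ADM, which encodes a vasodilator peptide, stood at 2.44 and 2.37 normalised CPM in the untreated PIP4K2B knockdown against 0.822 in empty-vector cells (1.54 ± 0.266, adjusted p = 0.00276), and at 1.88 and 1.96 after UV against 1.31 and 1.11 (0.66 ± 0.202, adjusted p = 0.038). The untreated call held in every fit without 1 library; the UV call was lost in 10 of 15 such fits and with DESeq2. NDRG1 was lower in the PIP4K2A knockdown, at 72.4 and 83.1 untreated against 123 and at 111 and 79.3 after UV against 131 and 148 normalised CPM (-0.66 and -0.55); the UV call was lost without UV replicate 2 of empty-vector cells (-0.45) and was at -0.32 without UV replicate 2 of its own line, and the untreated one in 3 of 14 fits without another library. P4HA2 was higher in the PIP4K2A knockdown after UV (0.56), a call lost without UV replicate 1 of that line (0.32) or UV replicate 2 of empty-vector cells (0.46). P4HA1 and KDM3A were lower in the PIP4K2B knockdown after UV (-0.39 and -0.32), calls lost in 6 and 8 of 15 fits without 1 library.

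**Figure D5:**
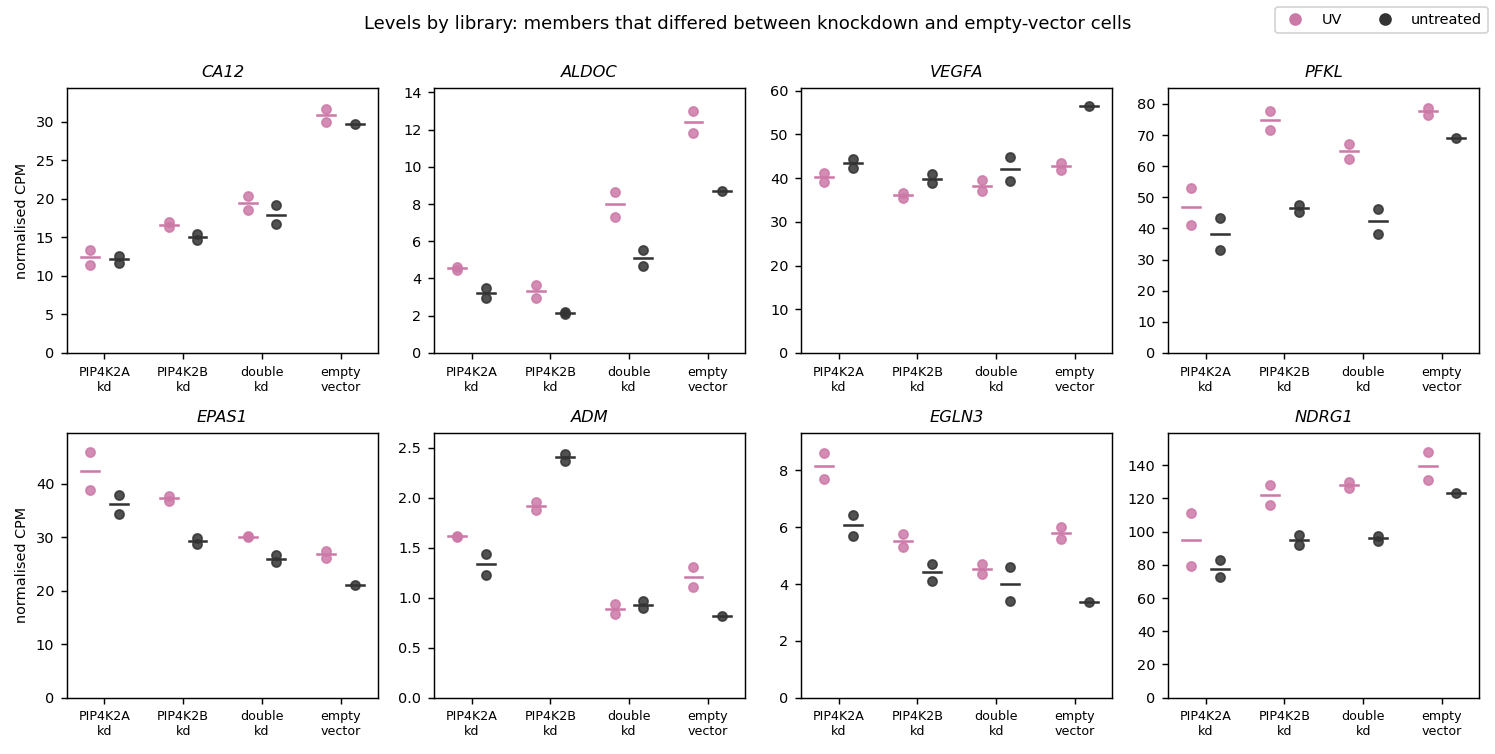
Normalised CPM by library for 8 members, UV (pink) left of untreated (dark), knockdowns left of empty vector, with the group mean as a bar. CA12 lies at 29.7 to 31.7 in empty-vector cells and at 11.4 to 20.4 in all knockdown libraries, ALDOC is lowest in the PIP4K2B knockdown, and EPAS1 is highest in the PIP4K2A knockdown.

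Of the HIF subunits, EPAS1 alone was called between knockdown and empty vector. From the levels given above, it was higher in the PIP4K2A knockdown by 0.78 ± 0.124 untreated and 0.66 ± 0.0971 after UV (SE; adjusted p = 0.00226 and 0.000558), and in the PIP4K2B knockdown by 0.48 in both states (adjusted p = 0.0265 and 0.00447). In the double knockdown it was 0.31 and 0.17 and not called (adjusted p = 0.182 and 0.287). The untreated PIP4K2B-knockdown call was lost without either untreated library of that line (0.45 and 0.53). EGLN3 was higher in the PIP4K2A knockdown, by 0.84 ± 0.203 untreated and 0.49 ± 0.152 after UV (adjusted p = 0.024 and 0.0379); the first was lost without untreated replicate 1 of that line (0.75), and the second in 9 of 15 fits without 1 library. HIF1A, ARNT and EGLN1 were called in 0 of the 6 knockdown comparisons.

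Among transporters, SLC2A1 was lower in the untreated PIP4K2A and PIP4K2B knockdowns (-0.49 and -0.42) and in the PIP4K2A knockdown after UV (-0.64 ± 0.094, adjusted p = 0.000547), the last in every fit without 1 library. SLC2A3 was higher in the untreated single knockdowns (0.59 and 0.6) and not called after UV (0.27 and 0.34). The untreated values of both genes rest on the single empty-vector library, and the SLC2A3 call in the PIP4K2A knockdown and the SLC2A1 call in the PIP4K2B knockdown were lost in 11 and 9 of 14 fits without another library. Of the flux regulators, PFKFB4 was lower in the untreated PIP4K2B knockdown (-0.48) and in the PIP4K2A knockdown after UV (-0.36), lost in 12 of 14 and 11 of 15 fits without 1 library, and PFKFB3 was called in none.

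Of the glycolytic enzymes in untreated cells, 7 were lower with the PIP4K2A hairpin, 2 with the PIP4K2B hairpin and 6 with both, where 4.13%, 4.99% and 2.96% of all genes were lower. None of the 16 was higher, against 3.71%, 5.26% and 3.24% of all genes, a share at which 0 of 16 is near the background. PFKL, the liver-type phosphofructokinase subunit, stood at 33.0 and 43.3 normalised CPM in the untreated PIP4K2A knockdown, at 47.6 and 45.4 in the PIP4K2B knockdown and at 38.1 and 46.4 with both hairpins, against 69.1 in empty-vector cells. It was called in the PIP4K2A and double knockdowns (-0.86 and -0.71), and in the PIP4K2A knockdown after UV (-0.73). Under ribosomal protein gene scaling these values were -0.56, -0.46 and -0.52. On that scale 1 member in all was called lower in the untreated double knockdown. Each untreated PFKL call was lost without untreated replicate 1 of its own line (-0.67 and -0.57). PGAM1 was lower in both single knockdowns untreated (-0.58 and -0.54) and after UV (-0.53 and -0.34), and 3 of these 4 calls held in every fit without 1 library, that in the PIP4K2B knockdown after UV being lost without UV replicate 1 (-0.33) or 2 (-0.34) of that line or UV replicate 2 of empty-vector cells (-0.27). ENO2 was lower in the PIP4K2A knockdown (-0.65 untreated and -0.74 after UV), the untreated call being lost without untreated replicate 1 of that line (-0.53).

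GAPDH and ALDOA, 2 of the 5 most abundant members, were lower in the untreated PIP4K2A and double knockdowns. GAPDH differed by -0.35 and -0.37 untreated and by -0.35 and -0.27 after UV, and under ribosomal protein gene scaling by -0.05, -0.11, -0.13 and -0.16, where none of the 4 was called. The untreated calls were lost in 12 and 11 of 14 fits without another library. ALDOA differed by -0.67 and -0.58 untreated and by -0.63 in the PIP4K2A knockdown after UV, the last lost without UV replicate 2 of empty-vector cells (-0.49) and the untreated ones in 1 and 9 of 14 fits without another library. PFKP was lower in the same untreated lines (-0.51 and -0.59, lost in 10 and 1 of 14 such fits), and HK2 in the double knockdown in both states (-0.54 and -0.52). HK1 was the enzyme called higher: 0.45 in the PIP4K2B knockdown after UV, a call lost in 3 of 15 fits without 1 library. TPI1, PGK1, ENO1, PKM, LDHA, GPI and PFKM were called in none of the 6 knockdown comparisons, with log2 fold changes of -0.34 to 0.37.

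The UV response of the members was also compared between each knockdown and empty-vector cells. No member was called in any of the 3 comparisons (edgeR's quasi-likelihood test, adjusted p of 0.901, 0.672 and 0.898 at the lowest), against a background over all genes of 0.00443% higher and 0.00443% lower with the PIP4K2A hairpin, 0.0% and 0.0% with the PIP4K2B hairpin, and 0.0% and 0.00885% with both. DESeq2 called 0 members too. At an unadjusted p under 0.05 in edgeR's test 2 of 38 members passed for the PIP4K2A hairpin (P4HA2 at 0.6 ± 0.204 and PFKP at 0.39 ± 0.175, SE). For the PIP4K2B hairpin 3 did (ADM at -0.89 ± 0.332, PFKL at 0.52 ± 0.225 and HK1 at 0.4 ± 0.177), and for both hairpins 2 (EGLN3 at -0.6 ± 0.259 and PFKFB4 at 0.42 ± 0.183). Of all 22597 genes 1109, 1655 and 1209 passed in the same order, so the members' share was near that of all genes. The larger number of enzymes called in knockdown cells is therefore not shown to be a larger response. Without UV replicate 2 of the PIP4K2A knockdown, the UV side of that line rests on replicate 1 alone. The members called in that fit were PKM (0.73), P4HA2 (0.79), GPI (0.58), PFKP (0.54) and SLC2A3 (-0.59). UV replicates 1 and 2 of that line differed, at 3896 and 2410 normalised CPM for PKM and at 476 and 331 for GPI. How many of all genes were called in that fit is not given here.

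The deposited tables also give each gene's transcript length weighted by the abundance of its isoforms, a readout that moves when isoform use moves. Of the 34 members with enough counts, 0 were called after UV in any genotype (limma), against 2.23%, 1.51%, 2.44% and 0.779% of all genes tested in the PIP4K2A, PIP4K2B and double knockdowns and in empty-vector cells. At an unadjusted p under 0.05 there were 3, 3, 3 and 0, and the share of all genes at that p is not given here. The nearest to the threshold was EGLN3 in the PIP4K2A knockdown, at 2773 and 1904 bases with UV against 1369 and 1536 untreated (0.66 on the log2 scale, adjusted p = 0.0652). Weighted length was near constant for PGAM1 (1789 to 1797 bases over 15 libraries) and P4HA1 (2664 to 2758), and varied over 2-fold for EGLN3 (1362 to 2773, a ratio of 2.04). The fit without UV replicate 2 of the PIP4K2A knockdown leaves that group with replicate 1 alone, and some members were called in it. UV replicates 1 and 2 of that line differed, for instance at 964 and 1384 bases for ALDOA and at 2262 and 1797 for PKM. The share of all genes called in that fit is not given here.

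Beyond the members, 67 other genes of the pathway were listed by role, of which 66 were tested. After UV 27 rose and 7 fell with the PIP4K2A hairpin, 25 and 8 with the PIP4K2B hairpin, 28 and 7 with both, and 14 and 5 in empty-vector cells. Of all genes 16.6%, 17.5%, 19.1% and 8.67% rose and 14%, 15.4%, 16.1% and 9.82% fell, so the share that fell was below that of all genes in each genotype and the share that rose above it. HILPDA, a HIF target on lipid droplets, fell by 1.58, 1.04, 1.46 and 1.65 on the log2 scale, and HMOX1, haem oxygenase, by 0.66, 0.65, 0.87 and 1.02. FAM162A, a mitochondrial protein gene, rose by 0.95, 0.64, 0.72 and 0.83, ELOB, a subunit of the ubiquitin ligase that degrades HIF alpha, by 0.54, 0.91, 1.04 and 0.81, and the cytokine gene MIF by 0.59, 1.12, 1.03 and 0.72. Under ribosomal protein gene scaling the splits were 1 higher and 47 lower, 0 and 50, 0 and 51, and 0 and 38, with FAM162A, ELOB and MIF between -0.27 and 0.21 and the falls of HILPDA and HMOX1 still called. MPC2, a subunit of the mitochondrial pyruvate carrier, rose by 1.2, 0.72, 0.69 and 0.72, and was at 0.37, -0.2, -0.18 and -0.01 under that scaling. INSIG2, a sterol sensor partner, fell by 0.76, 0.87 and 1.14 in the PIP4K2A, PIP4K2B and double knockdowns and had -0.48 in empty-vector cells (adjusted p = 0.0796), a fall that was called under that scaling (-1.2). The 31 further glycolysis, pentose phosphate and pyruvate genes had 17, 15, 18 and 7 genes higher and 1, 2, 1 and 0 lower, above the all-gene shares for rises and below them for falls.

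Between knockdown and empty-vector cells the same 66 genes had 4, 6 and 5 higher and 7, 7 and 3 lower untreated and 10, 10 and 13 higher and 10, 8 and 5 lower after UV, in the PIP4K2A, PIP4K2B and double knockdowns. Of all genes 3.71%, 5.26% and 3.24% were higher and 4.13%, 4.99% and 2.96% lower untreated, and 11.3%, 10.7% and 8.5% higher and 9.01%, 8.3% and 6.86% lower after UV, and several of the counts lie near these shares. ZNF395, a HIF-inducible zinc finger gene, was higher in every one, by 1.01, 1.33 and 0.93 untreated and 1.16, 1.53 and 1.18 after UV. The repressor gene BHLHE41 was lower in the PIP4K2B knockdown (-1.5 untreated and -1.15 after UV) and in the PIP4K2A knockdown (-0.62 and -0.34), and higher in the double knockdown after UV (0.35). Its paralogue BHLHE40 was lower in all 3 after UV (-0.85, -0.94 and -0.94) and in the untreated PIP4K2B and double knockdowns (-0.38 and -0.44). Under ribosomal protein gene scaling the calls of ZNF395, those of BHLHE41 in the PIP4K2B knockdown and those of BHLHE40 after UV also passed, and the other calls of BHLHE41 and BHLHE40 did not. On that scale BHLHE40 was higher in the untreated PIP4K2A knockdown (0.38, adjusted p = 0.0499), and the untreated splits were 9 higher and 1 lower, 5 and 2, and 13 and 1, and those after UV 20 and 7, 7 and 5, and 14 and 2.

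The members differ in gene length and surroundings. The 8 called higher after UV in all genotypes spanned a median of 10.6 kb (3.83 to 219), and the 6 called lower in 2 or more genotypes (ARNT, KDM3A, SLC2A1, SLC2A3, PFKFB3 and PFKFB4) spanned 48.2 kb (17.0 to 110). The 2 sets differ in threshold, so their medians are not a like comparison. Called lower in all 4 genotypes were SLC2A1 and PFKFB3 alone, which spanned 33.8 and 110 kb. Across the 38 members, log2 fold change after UV and log span correlated at -0.14, -0.32, -0.3 and -0.23 in the PIP4K2A, PIP4K2B and double knockdowns and in empty-vector cells, against 0.08, 0.04, 0.06 and 0.01 across 22015 genes. Genes of 1 library share its depth and scale and are not independent, so these values are a description. A gene on the opposite strand covered part of 23 of the 39 members, whose reads cannot be told apart where counting ignored strand, and 16 have named pseudogenes, so reads of such copies may have been counted with a member or with its copy. TPI1, GAPDH and ENO2 lie within the same stretch of chromosome 12 (6533927 to 6923698).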

How the data were processed

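Per the labels' protocols, total RNA of U2OS cells went through ribosomal RNA removal and a directional library kit. The authors deposited 1 table per library with 60666 genes. Per the file headers these hold expected counts (RSEM's estimate of reads per gene, not normalized), TPM, which the authors' pipeline scaled by transcript length, and a transcript length weighted by isoform abundance. Per the submitters' processing notes, STAR, SAMtools, RSEM and GRCh38 were used; versions, the annotation release and how strand was set: not given in the sources used here. The deposited expected counts summed to 28.0 to 39.9 M per library, except 1 library of 1.28 M that was set aside.

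Expected counts were rounded and fitted with edgeR 4.0.16 in R 4.3.3 (filterByExpr with a minimum count of 10, TMM, 1 mean per group, quasi-likelihood test over 22597 genes and 15 libraries, with the Benjamini-Hochberg adjusted p threshold at 0.05). Normalised CPM is CPM over the TMM factor, which was 0.873 to 0.954 in UV libraries and 1.08 to 1.15 in untreated ones. The log2 weighted length was tested, for genes averaging 100 counts or more, with limma 3.58.1, with library values under 10 counts set aside. TPM served only to compare genes. DESeq2 1.42.0, other size factors, scaling to 76 ribosomal protein genes, other filters, a replicate block, only the groups compared, all 16 libraries and fits without 1 library were the alternatives. The scripts were tested on simulated data.

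Positions came from GENCODE 29 on GRCh38, where all 39 members were found, and promoter sequences from RefSeq on GRCh38.p14. Members and lists were chosen with earlier results of these data known. Values in every library are given for the HIF subunits and for the members of each role called in most of the 10 comparisons of 2 groups (2 per role, 4 among glycolytic enzymes and among HIF targets, ties by the larger change), and up to 4 genes per comparison are named from the wider lists. Some genes of these lists are not reported here by name. Per-library values of LDHA, PFKL, ADM and NDRG1 were added after their values were seen.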

Additional observations from a re-analysis of the deposited data

How the results depend on the processing

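The 136 member calls were recomputed under each alternative. None reversed with RLE size factors, DESeq2, a replicate block, no filter, a CPM filter or only the groups compared, and 3, 6, 11, 13, 1 and 36 of them lost significance. With all 16 libraries in the fit, where the biological coefficient of variation was 41.9% against 11.3% with 15, 120 calls lost significance and 14 reversed. The members called then numbered 0 in each comparison of 2 groups, except 1 in the untreated PIP4K2A knockdown and 1 in the untreated PIP4K2B knockdown (CA12 both times). The 14 reversals all involve untreated empty-vector cells: EGLN3 (-0.29 for UV in empty vector, -0.2 in the PIP4K2A knockdown), PFKP (0.08 in the PIP4K2A and 0.02 in the double knockdown), NDRG1 (0.16), GAPDH (0.55 and 0.55), ENO2 (0.07), ALDOA (0.18 and 0.29), PGAM1 (0.16 in the PIP4K2A and 0.22 in the PIP4K2B knockdown), ADM (-0.84) and PFKL (0.14).

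Ribosomal protein gene scaling reversed 56 calls, all of them rises after UV, and 28 lost significance. In the PIP4K2A, PIP4K2B and double knockdowns and empty-vector cells the reversed values were -0.23, -0.17, -0.15 and -0.29 for ENO1; -0.35, -0.4, -0.21 and -0.19 for PGK1; -0.2, -0.57, -0.29 and -0.12 for BNIP3L; -0.11, -0.06, -0.08 and -0.03 for GAPDH; -0.12, -0.37, -0.26 and -0.06 for LDHA; -0.22, -0.09, -0.06 and -0.17 for ALDOA; and -0.22, -0.17, -0.1 and -0.18 for PGAM1. In the 3 knockdowns they were -0.25, -0.43 and -0.36 for PFKP, -0.11, -0.23 and -0.24 for PKM, -0.08, -0.28 and -0.29 for GPI, -0.31, -0.29 and -0.22 for ALDOC, and -0.4, -0.35 and -0.36 for HK1. In the PIP4K2A knockdown P4HA2 was at -0.26, TPI1 at -0.08, P4HA1 at -0.35, EGLN3 at -0.38 and PFKM at -0.42. In the PIP4K2B knockdown TPI1 was at -0.0, ENO2 at -0.25, EPAS1 at -0.56 and PFKL at -0.23. In the double knockdown PFKM was at -0.46, ENO2 at -0.24, PFKL at -0.25 and NDRG1 at -0.46. The members called, in either direction, became 22 for UV in empty-vector cells, 7, 5 and 2 in the untreated PIP4K2A, PIP4K2B and double knockdowns, and 5 in the PIP4K2B knockdown after UV.

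With only the groups compared, where the spread rests on 1 or 2 degrees of freedom, the members called became 23 for UV in empty-vector cells, 2 for UV in the PIP4K2A knockdown, 9 and 16 in the untreated PIP4K2A and PIP4K2B knockdowns, and 3, 15 and 15 in the PIP4K2A, PIP4K2B and double knockdowns after UV. The replicate block left 4 members called in the untreated double knockdown and moved no other count of members by over 1.5 times. The labels do not say whether same-numbered libraries are paired, and the main fit did not pair them. In 7 groups the correlation of their deviations over 12655 genes ran from -0.376 to 0.586 in 21 pairs. Of these, 5 were over 0.1 and 5 under -0.1, which does not settle whether some libraries are paired. The cause of the changes in the member counts was not tested.

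Without 1 library, members called after UV ranged from 15 to 24 in the PIP4K2A knockdown, 15 to 26 in the PIP4K2B knockdown, 15 to 27 in the double knockdown and 7 to 23 in empty-vector cells. Against empty-vector cells they ranged from 4 to 18, 4 to 16 and 0 to 11 untreated, and from 7 to 18, 3 to 14 and 2 to 10 after UV. The untreated PIP4K2A-knockdown count was 9 without either UV library of the double knockdown. The untreated double-knockdown count was 5 without either UV library of the PIP4K2B or of the double knockdown, untreated replicate 2 of the PIP4K2B knockdown or UV replicate 2 of empty-vector cells. After UV, the PIP4K2B-knockdown count was 14 without either UV library of the PIP4K2A knockdown, 3 or 4 without its own UV replicate 1 or 2, 4 or 3 without UV replicate 1 or 2 of empty-vector cells, and 5 without either UV library of the double knockdown. The double-knockdown count was 10 without either UV library of the PIP4K2A knockdown, and 2 without UV replicate 2 of its own line or of empty-vector cells. Differences of UV responses ranged from 0 to 5 for the PIP4K2A knockdown and from 0 to 0 for the others. Weighted-length calls ranged from 0 to 10, 0 to 2 and 0 to 1 in the PIP4K2A, PIP4K2B and double knockdowns and from 0 to 0 in empty-vector cells. They were 2 for the PIP4K2B knockdown without either UV library of the PIP4K2A knockdown, and 1 for the double knockdown without either untreated library of the PIP4K2B knockdown. Comparisons with untreated empty-vector cells cannot be made without their only library. Depth limits CA9 and ANGPTL4, whose levels reached no more than 0.701 and 0.191 normalised CPM.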
